A study of Mus musculus with 4 samples.

Results

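Retained intron transcripts are isoforms that the GENCODE annotation types as keeping sequence that other isoforms of the same gene splice out as an intron. They were picked by annotation alone: every transcript identifier in the deposited tables was matched, without its version number, to GENCODE M21 (mouse build GRCm38), and those typed retained intron were kept. This gave 17248 of 99567 transcripts (17.3%), in 7401 parent genes. Of these members, 17220 lay in protein-coding genes and 28 in other genes. GRCm38 is the assembly that mm10, the build in the submitters' processing notes, stands for. The annotation holds 21848 such transcripts, and 4600 of them had no row in the tables and were not analysed here. A count was assigned in at least 1 library to 14316 members (83.0%), and 2932 were listed at 0 in all 4 libraries.

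The study isolated adult neural stem cells by flow cytometry from gfap:GFP transgenic mice on a mixed CD1 and C57BL/6 background, 3 months of age. The labels put all 4 libraries in 1 group: activated, EGFR-positive cells that also carried Prom1 and GFAP, with no treatment. The series' design text speaks instead of quiescent cells taken after injection of artificial cerebrospinal fluid or of antagomirs to miR204. The sample labels were followed, so no conditions are compared and the 4 libraries (numbered 1 to 4) are treated as replicates. Nothing in the labels says whether they came from separate animals, so errors and p-values measure only the spread between these libraries, which may be technical. The transgene reports the activity of a Gfap promoter, and the sort selected on the 3 markers named above. RNA of all 3 was present in every library: Gfap was at 107 to 227 TPM (a transcript's estimated share of all transcript molecules, scaled to a fixed total), Egfr at 71.5 to 121 TPM and Prom1 at 14.6 to 31.7 TPM. Library depth ranged from 16978938 to 23727664 estimated counts. Lists of markers of other cells were also read: all 8 oligodendrocyte markers reached a mean of 1 TPM, with a summed level of 2520 to 4340 TPM, as did all 10 of microglia (138 to 445 TPM), all 10 of ependymal cells (641 to 1300 TPM) and all 10 of neurons (1170 to 1480 TPM), but 1 of 7 endothelial markers, with Cdh5 listed at 0.

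Introns are removed from a primary transcript by the spliceosome, which reads a short signal at the start of the intron, nearly always GT, and another at its end, nearly always AG. An isoform in which one intron is left in usually cannot encode the full protein. It may be held in the nucleus, spliced later, or degraded by nonsense-mediated decay when it reaches the ribosome. In neural cells, retained introns are known in transcripts of splicing factors and of synaptic proteins, where retention keeps the protein low until the intron is removed. An annotated retained intron transcript is a different thing from a measured intron: many such models are short, begin or end inside an intron, and share most of their sequence with coding isoforms. A read in a shared exon does not tell them apart, and kallisto divides it by estimate.

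The members took mainly 2 shapes, shown here by examples with mean levels from 25.2 TPM (Tbl3-201) to 789 TPM (Gapdh-206). In the first, a whole intron of a coding isoform lay inside an exon of the member. The following 5 introns, kept whole, are all short ones, of 68 to 100 bases. They are printed 5′ to 3′ on the strand of the gene, with the first and last pair of bases in capitals. They were read from the GENCODE M21 transcript sequences on GRCm38.
Gapdh-206 (chr6:125162394-125162477, minus strand, 84 bases): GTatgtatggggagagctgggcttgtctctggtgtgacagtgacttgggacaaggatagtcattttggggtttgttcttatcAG
Hnrnpk-217 (chr13:58393775-58393852, minus strand, 78 bases): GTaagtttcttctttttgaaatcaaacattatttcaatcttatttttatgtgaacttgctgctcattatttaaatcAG
Hsp90aa1-206 (chr12:110695419-110695518, minus strand, 100 bases): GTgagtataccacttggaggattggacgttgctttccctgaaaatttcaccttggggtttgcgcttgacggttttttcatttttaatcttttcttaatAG
Mrps24-201 (chr11:5707556-5707623, minus strand, 68 bases): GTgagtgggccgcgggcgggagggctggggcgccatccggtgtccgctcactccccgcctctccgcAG
Tbl3-201 (chr17:24705318-24705396, minus strand, 79 bases): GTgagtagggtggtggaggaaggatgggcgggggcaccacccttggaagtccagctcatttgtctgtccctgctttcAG
In the reading of the coding isoform with most introns, these were intron 5 of 6 in Gapdh, 15 of 17 in Hnrnpk, 2 of 10 in Hsp90aa1, 1 of 3 in Mrps24 and 6 of 21 in Tbl3.

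In the other shape, the member kept only one end of an intron, because its model starts or stops inside it. The following 4 borders between exon and intron show this, with up to 24 intron bases and 12 exon bases each, and with the GT or AG at the border in capitals. The first 2 members run from an exon on into the intron and stop there, and the last 2 begin in the intron and run into the exon.
Cspg5-203 (chr9:110247379-110247414, plus strand): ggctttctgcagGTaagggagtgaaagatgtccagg
Psmb4-202 (chr3:94884898-94884928, minus strand): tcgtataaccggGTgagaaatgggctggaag
Sparc-205 (chr11:55402060-55402095, minus strand): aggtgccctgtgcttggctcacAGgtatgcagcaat
Grcc10-203 (chr6:124740684-124740715, minus strand): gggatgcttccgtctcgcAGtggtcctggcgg
Sparc-205 holds 94 of 3108 intron bases, Cspg5-203 215 of 3568, Psmb4-202 19 of 157 and Grcc10-203 20 of 224.

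Retained intron transcripts took 3.16%, 4.28%, 4.57% and 3.58% of all TPM in libraries 1 to 4, a mean of 3.90% ± 0.642 (SD, n = 4). Library 3 was highest and library 1 lowest. By estimated counts, which are not divided by transcript length, the shares were 2.22%, 3.27%, 3.18% and 2.52%, a mean of 2.80% ± 0.511 (SD, n = 4). The share was thus larger in TPM than in counts in 4 of 4 libraries, by a ratio of 1.42, 1.31, 1.43 and 1.42. The exact two-sided sign-flip test over libraries gave p = 0.13, the smallest p that 4 libraries allow. TPM divides these same counts by a length, and the median member has 857.5 bases against 1803 for protein-coding transcripts. The direction is thus largely set by the annotated lengths, and the p-value lends it no support. Protein-coding transcripts went the other way, with 81.3% ± 1.18 of TPM and 91.6% ± 0.581 of counts (SD, n = 4). Transcripts typed for nonsense-mediated decay, isoforms with a stop codon placed so as to mark them for breakdown, held 2.09% ± 0.126 of TPM. Processed transcripts, a class without an open reading frame, held 3.31% ± 0.231 of TPM (SD, n = 4). The number of members at 1 TPM or more was 4637, 6665, 6468 and 4968 in libraries 1 to 4. It was not highest in library 4, the deepest, and 2553 members reached 1 TPM in every library.

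**Figure D1:**
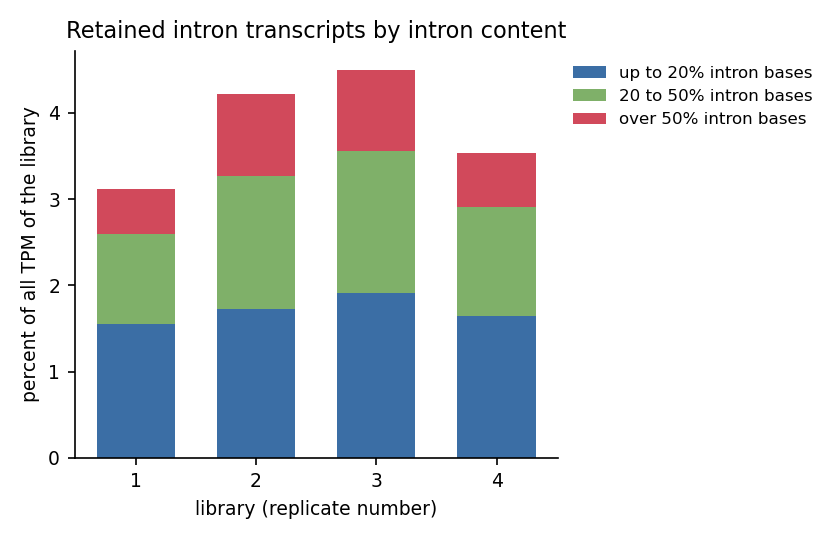
Share of all TPM (percent, y axis) held by retained intron transcripts in each of the 4 libraries (x axis), stacked by the percent of the transcript's bases that lie in an intron of the coding isoforms. The blue block, members of up to 20% intron bases, goes from 1.55 to 1.91%, while the red block, members over 50%, goes from 0.514% in library 1 to 0.947% in library 2.

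Most of the RNA assigned to the class lay in members that are mainly exon. Each of 17067 members with the same version in files and annotation and a coding isoform in the gene was compared, base by base, with the exons of the gene's coding transcripts. A whole coding intron of at least 30 bases was kept by 5037 of them (29.5%), which held 32.1% ± 1.43 of the members' TPM (SD, n = 4). Only part of an intron was kept by 11931 (69.9%), with 67.4% ± 1.42 of the TPM. The other 99 kept no whole intron and held no intron base. A member that keeps a whole intron can also hold no intron base, where that intron is exon in another coding isoform, as in Gfra4-208. The 4107 members with at most 20% intron bases were 24.1% of members and held 44.9% ± 4.04 of their TPM. The 6646 with over 50% intron bases were 38.9% of members and held 19.3% ± 2.75. Of the 31 members read here that reached 100 TPM, 20 were of at most 20% intron bases and 0 were over 50%. In members with part of an intron, the intron bases lay mainly in the first exon in 39.0% (51.7% ± 2.37 of the TPM of these members) and in the last exon in 50.9% (42.8% ± 1.92 of the TPM). A further 9.08% were a single exon, with a median of 92.8% intron bases, and they held 4.06% ± 0.382 of the TPM (SD, n = 4). Few, 1.08%, had them in an inner exon.

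As a ratio, libraries 2 and 3 stood further above library 1 the more intron the members held. The SD over the 4 libraries was instead largest in the middle group. It was 0.155, 0.273 and 0.219% of all TPM for members of up to 20%, 20 to 50% and over 50% intron bases. Members of up to 20% intron bases took 1.55%, 1.72%, 1.91% and 1.64% of all TPM in libraries 1 to 4, so that libraries 2 and 3 were at 1.11 and 1.23 times the level of library 1. Members of 20 to 50% took 1.05%, 1.55%, 1.65% and 1.27%. Members over 50% took 0.514%, 0.947%, 0.934% and 0.622%, and libraries 2 and 3 were at 1.84 and 1.82 times library 1. By counts the same libraries were at 1.88 and 1.68 times library 1 for members over 50%. Each of these is 1 library against 1 other, with no replicate of the contrast and no test. Total levels of the immediate early genes (Fos, Jun, Egr1 and 11 others), which respond quickly to stimulation and to tissue dissociation, were 5460, 7020, 9900 and 4330 TPM in libraries 1 to 4, again higher in libraries 2 and 3 than in 1 and 4. The share of TPM on the mitochondrial chromosome ranged from 13.5% in library 3 to 18.4% in library 2. Marker sums of other cells were lowest in library 1 for 3 lists. They were 2520, 3660, 3320 and 4340 TPM for oligodendrocytes, 138, 328, 445 and 436 TPM for microglia and 641, 1300, 869 and 1070 TPM for ependymal cells in libraries 1 to 4. Neuron markers were highest in library 1, at 1480, 1170, 1170 and 1200 TPM. The part of any of these in the retained intron share was not tested.

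Among the members with the highest levels, Gapdh-206, a 565-base model of the glycolytic enzyme glyceraldehyde-3-phosphate dehydrogenase that keeps the 84-base intron printed above, stood at 957, 697, 746 and 755 TPM in libraries 1 to 4. It was highest in library 1, and the other 3 libraries lay close together. Sparc-205, from the gene of a secreted matrix glycoprotein, was at 440, 320, 410 and 462 TPM. Atp5j-208, from a subunit of mitochondrial ATP synthase, was at 410, 305, 345 and 432 TPM.

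Hba-a1-202, from an alpha-globin gene of red blood cells, was the exception among the leaders, at 17.6, 191, 140 and 736 TPM. Library 4 was far above the other three, and the coding isoform Hba-a1-201 moved with it, at 15.8, 97.4, 102 and 412 TPM. The near-identical copy Hba-a2 makes the division of these reads uncertain. Ppp1r1b-202, from a phosphatase inhibitor known from striatal neurons, was at 304, 238, 258 and 264 TPM. Cspg5-203, from a brain chondroitin sulfate proteoglycan, was at 271, 199, 306 and 213 TPM. Cdk4-209, from the kinase that drives entry into the cell cycle, was at 265, 242, 253 and 225 TPM with 25 intron bases in 468. Grcc10-203 was at 255, 216, 249 and 250 TPM with 20 in 424. Hsp90aa1-206, from the stress-inducible chaperone, was at 194, 278, 252 and 156 TPM. The 20 highest members together held 18.4%, 12.4%, 12.3% and 18% of the retained intron TPM, so the leaders weighed least in libraries 2 and 3.

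Each transcript with a count was tested against a level of 1 TPM with limma (log2 of TPM + 1, adjusted over 68226 transcripts by Benjamini-Hochberg, threshold 0.05). Of the 14316 members tested, 2075 (14.5%) were above 1 TPM, against 30.9% of all transcripts tested, 43.0% of protein-coding transcripts, 22.0% of those typed for nonsense-mediated decay and 16.6% of processed transcripts. The class was thus less often above 1 TPM than transcripts as a whole. limma placed 4713 members (32.9%) below 1 TPM, against 29.0% of all transcripts, but edgeR's quasi-likelihood test on the counts placed 79 there, so that count depends on the tool. By the annotation's own evidence, members of support level 1, the best supported, reached a mean of 1 TPM in 34.7%, level 2 in 40.6%, level 3 in 30.8%, level 5 in 33.0%, and those without a level in 22.0%.

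Within their parent genes the members were mostly a minor part. Among 6343 parent genes of at least 1 TPM, the median share of the gene's TPM in retained intron transcripts was 7.23% (quartiles 2.27 and 18.8%). The share was under 5% in 2557 genes (40.3%), 0 in 322 and over 50% in 328. By counts the median was 3.71%. The share was lower in strongly expressed genes: the median was 11.5% in the 1511 genes of 1 to 10 TPM, 7.09% in 4042 genes of 10 to 100 TPM, 3.29% in 760 genes of 100 to 1000 TPM and 2.26% in the 30 genes above. The median SD of a gene's share over the 4 libraries fell along the same bins, from 9.24 to 4.02, 1.63 and 0.825 percentage points. Among the 4832 genes of at least 10 TPM, the median share was 4.32%, 7.95%, 6.80% and 4.43% in libraries 1 to 4. The share was highest in library 2 for 1824 genes and in library 3 for 1400, against 585 in library 1 and 867 in library 4. The order of genes was nevertheless similar: the Spearman correlation of shares between pairs of libraries ran from 0.710 to 0.815 over these genes, which share the annotation and its lengths and are not independent.

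A retained intron transcript was the most abundant isoform by mean TPM in 412 of the 6343 genes (6.50%). It led in 4 of 4 libraries in 188. A protein-coding transcript led in 5527 genes, one typed for nonsense-mediated decay in 199 and a processed transcript in 198. By level, a member led in 12.3% of the genes of 1 to 10 TPM, 4.77% of those of 10 to 100 TPM and 4.08% of those of 100 to 1000 TPM, while 2 of the 30 genes above (6.67%) were led. Ranking isoforms by estimated count in place of TPM lowered the number of led genes from 412 to 227, and 177 genes were led by both measures.

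To compare the sums within each gene, log2 of the retained intron over the protein-coding TPM (each + 1) was tested against 0 with limma, together with the same ratios for nonsense-mediated decay and processed transcripts, and p-values were adjusted over all 14678 ratios by Benjamini-Hochberg. Retained intron transcripts exceeded coding ones in 225 of 6327 genes (3.56%), close to the 3.97% of all 3 classes together, the 4.83% of nonsense-mediated decay and the 3.95% of processed transcripts. They were below coding in 5310 genes (83.9%), against 83.7% of the 3 classes, 82.7% of nonsense-mediated decay and 84.1% of processed transcripts. The median log2 ratio was -2.62, against -2.61 and -2.73 in the other classes. The retained intron class therefore did not stand out from other non-coding isoforms by how often it exceeded the coding sum. Of the 225 genes, 214 were higher in 4 of 4 libraries.

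The same test on counts scaled only to the library total (CPM), without a division by length, left 121 genes above (1.91%, against 2.13% of the 3 classes). Of the 225 genes above by TPM, 101 were also above by counts, 85 passed in neither direction and 39 were below. The log2 ratio of Gapdh went from 1.64 (SE 0.18, adjusted p = 6.25e-05, limma) by TPM to 0.28 by counts, and its most abundant coding model, Gapdh-202, has 1273 bases against 565. Gapdh also has many processed pseudogenes of near-identical sequence, so its division of reads is uncertain.

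**Figure D2:**
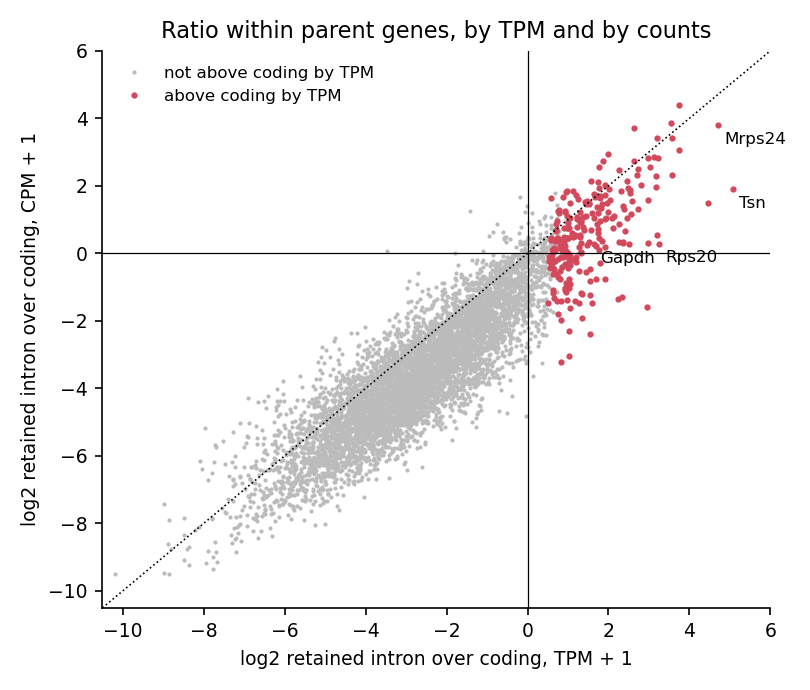
Log2 ratio of retained intron over protein-coding transcripts in 6327 parent genes, by TPM + 1 (x axis) and by CPM + 1 (y axis); red points are the 225 genes above coding by TPM (limma), and the dotted line marks equal ratios. Most points lie under the dotted line, and 68 of the 225 red points are below 0 by counts.

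Length set the members apart from coding transcripts. The median member had 857.5 bases (quartiles 619 and 2318), against 1803 for protein-coding transcripts, 1199 for nonsense-mediated decay and 622 for processed transcripts. Members of under 500 bases were 13.2% of the class and held 14.1% ± 1.01 of its TPM but 3.54% ± 0.439 of its counts (SD, n = 4). Members from 500 to under 750 bases held 34.3% ± 1.18 of the TPM and 15.0% ± 0.912 of the counts. At the other end, members of at least 3000 bases held 8.84% ± 0.470 of the TPM and 30.7% ± 0.974 of the counts. TPM divides by the effective length, the number of positions at which a fragment can start. For members of 400 to 600 bases that was 68.0 to 70.8% of the length, over the 4 libraries, against 95.6 to 96.0% for members over 3000 bases. The top member was shorter than the top coding transcript in 331 of 404 led genes with a coding transcript (81.9%, median length ratio 0.451) and in 4341 of 5527 coding-led genes (78.5%, median 0.455). Among genes of at least 10 TPM it was shorter in 84% of the led and 78.4% of the coding-led genes. These shares were not tested against each other. Across members, length and mean TPM had a Spearman correlation of -0.176, and across those at 1 TPM or more of -0.0627, as a description.

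**Figure D3:**
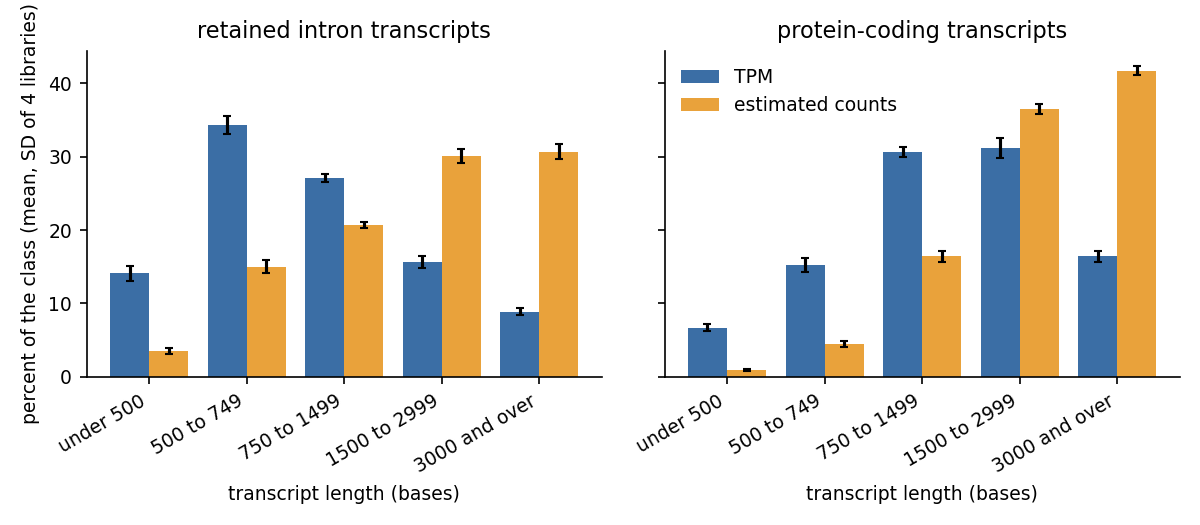
Percent of the class's TPM (blue) and estimated counts (orange) in 5 bins of transcript length, for retained intron transcripts (left) and protein-coding transcripts (right); bars are means of 4 libraries and lines their SD. Members of under 500 bases hold 14.1% of TPM but 3.54% of counts, and those of 3000 bases and over hold 8.84% of TPM but 30.7% of counts.

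The 12 strongest genes led in every library were chosen by TPM, so their ratios by TPM are a description. Of them 9 were above the coding sum by TPM, against 3.56% of all parent genes, and Tsn alone by counts, against 1.91%. Grcc10 was at 75.9%, 74.4%, 78.2% and 74.7% retained intron TPM in libraries 1 to 4, with a log2 ratio over coding of 1.76 (SE 0.17, adjusted p = 3.69e-05, limma). Gabarapl2, an autophagy protein of the Atg8 family, was at 67.1%, 70.3%, 69.3% and 69.8%, with a log2 ratio of 1.15 by TPM and -0.19 by counts. Cox7b, a subunit of cytochrome c oxidase, was at 66.0%, 66.9%, 66.0% and 66.2%, with 1.02 by TPM and -0.16 by counts. The 4 libraries of each of these genes lay close together, and by counts none of the 3 passed in either direction.

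Several other leaders sat near equality with their coding sums. Atp5j had a share of 56.9 to 60.2% and a log2 ratio of 0.54 (adjusted p = 0.0337, limma). Psmb4, a proteasome subunit, had a share of 53.6 to 63.3% and 0.56 (adjusted p = 0.0379, limma), and Hba-a1 52.6 to 66.3% and 0.60 (adjusted p = 0.0386, limma). In Sparc a member was the single highest isoform, yet the coding sum was higher, at a log2 ratio of -0.54 (adjusted p = 0.0475, limma). With 1 library left out at a time, limma's adjusted p ran from 0.0501 to 0.101 in Atp5j and from 0.0822 to 0.120 in Sparc. It ran from 0.036 to 0.126 in Psmb4 and from 0.0292 to 0.145 in Hba-a1, which held only without library 1. The log2 ratio of Cdk4 was 0.06 (adjusted p = 0.809, limma). It was 0.95 (adjusted p = 0.00369, limma) against the most abundant coding transcript alone and -1.38 (adjusted p = 0.000757, limma) by counts, so its direction depended on the measure. Ppp1r1b, Cspg5 and Hsp90aa1 held large members but lower shares, with means of 39.6%, 29.3% and 21.8%.

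Among genes of at least 10 TPM with a coding transcript over 1 TPM, the 10 highest mean shares ran from 89.4 to 97.5%. These genes were chosen by that share, so their ratios by TPM and the p-values of those ratios are a description. Tsn, which encodes the nucleic acid-binding protein translin, was at 97.4%, 97.2%, 97.6% and 97.5%. Its log2 ratio was 5.08 (SE 0.10, adjusted p = 1.85e-07, limma), and 1.91 by counts. Its leader Tsn-204 has 656 bases, and the top coding model Tsn-201 has 7063. Taf10, a subunit of the general transcription factor TFIID, was at 94.8%, 95.8%, 97.1% and 97.0%, with a 601-base member against a coding model of 4281 bases. The log2 ratio of Taf10 was 4.45 by TPM and 1.49 by counts. Rps20, a protein of the small ribosomal subunit, was at 91.9%, 90.6%, 91.6% and 91.4%, with 582 against 3706 bases. Its log2 ratio went from 3.25 (adjusted p = 8.91e-07, limma) by TPM to 0.29 by counts. In these 3 genes the coding model was the longer by far.

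In 6 others of the 10, as in Tsn and Taf10, the members were above coding by counts as well. Mrps24, a mitochondrial ribosomal protein, was at 98.2%, 95.9%, 94.0% and 90.8%. Its leader Mrps24-201 has 700 bases and keeps the 68-base intron printed above, and its log2 ratio was 4.72 by TPM and 3.80 by counts. Tbl3, which acts in ribosomal RNA processing, was at 93.6%, 93.1%, 98.1% and 94.2%, with 3.73 and 3.06. Its leader differs from the coding exons by 1 intron of 79 bases in 2767. Gfra4, a receptor of the GDNF family, was at 92.3 to 97.2% with 3.57 and 3.41. The 53-base intron that Gfra4-208 keeps is exon in another coding isoform, so it has no base outside coding exons. Atic, an enzyme of purine synthesis, was at 91.1 to 95.6% with 3.02 and 2.57, and Tpcn1, an endolysosomal cation channel, at 88.2 to 91.5% with 2.57 and 1.55. Dock10, a guanine nucleotide exchange factor, was the one mainly intronic leader of the 10. Dock10-206 is a single exon of 1899 bases, 99.7% of them intron, at 51.6, 85.0, 71.6 and 84.6 TPM, and the gene's share was 84.1 to 95.1%. Nmd3, an export adaptor of the large ribosomal subunit, was at 94.7%, 94.0%, 86.3% and 82.5%. Its top coding transcript was listed at 0 in libraries 1 and 2, and its log2 ratio of 2.97 by TPM was 0.31 by counts, which did not pass.

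**Figure D4:**
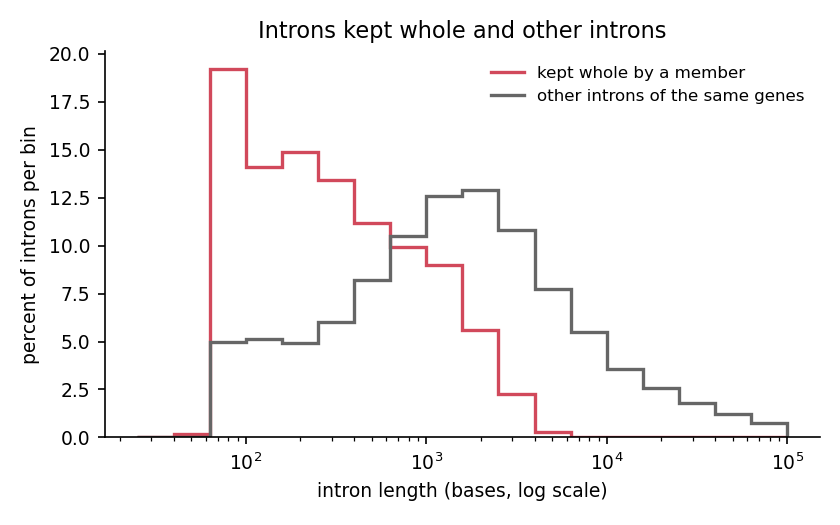
Length (bases, log x axis) of introns kept whole by a member (red) and of the other introns of the same genes (grey), as percent of introns per bin (y axis). The kept introns lie further left, with a median of 266 bases against 1457.

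Introns kept whole were short. Counting each intron once per gene, 6077 were kept whole by a member and 108635 other introns of the same genes were not. The medians were 266 and 1457 bases, and 32.0% against 9.64% were under 150 bases. This is a property of the annotated models and needs no expression. Kept introns were also shorter where the member's TPM was higher. TPM itself divides by the member's length, and no bins by estimated counts were taken, so this trend is not separate from length. The 3528 distinct introns whose member was under 1 TPM had a median of 309 bases, the 2261 of 1 to 10 TPM had 231 bases and the 212 of at least 10 TPM had 161.5 bases. The median GC content of the intron rose along the same bins, from 50.3% to 52.6% and 55.2%. Of the 6001 distinct kept introns, 98.5% began with GT and 99.62% ended with AG. The share that was the last intron of its transcript was 7.60%, 7.96% and 11.3% in the 3 bins. Over all kept introns it was 7.9%, against 9.48% over the other introns of the same genes. First introns were 9.31% of the kept and 13.3% of the other introns. These values are across introns, which share genes, and are given as a description with no test.

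Several genes of the splicing machinery carried large retained intron shares. Of 18 SR proteins and their kinases, 14 had a member and at least 1 TPM, and the median share was 21.3% (range 0.807 to 62.0%), against 7.23% over all parent genes. The median was 7.09% over parent genes of 10 to 100 TPM and 3.29% over those of 100 to 1000 TPM. The 14 genes hold 51 members, where 7401 parent genes hold 17248, and the share sums over a gene's members. The part of member number in the share was not tested. SR proteins bind exons and promote splicing. Of the 50 members tested in this list, 21 were above 1 TPM, against 14.5% of all members tested. The genes of the list had means from 31.8 TPM (Tra2a) to 495 TPM (Srsf5). In such genes a small share is enough to reach 1 TPM, and no rate for genes of like level was taken. Retained intron transcripts exceeded the coding sum in 2 of the 14 genes, against 3.56% of all parent genes, and were below it in 11, near the 83.9% of all parent genes. Summed over the list, retained intron TPM was 362, 503, 623 and 375 in libraries 1 to 4, against 2550, 2670, 3270 and 2490 for all transcripts of these genes. Srsf3 was even over libraries, at 40.5%, 41.7%, 39.0% and 39.8%. Its main member has another version in the files, so its intron content was not read. Srsf5 was at 19.6%, 27.2%, 27.5% and 21.6%, through the 2720-base Srsf5-212, which keeps a whole intron of 1229 bases and stood at 78.0, 126, 156 and 67.2 TPM. Srsf11 was at 12.7%, 34.2%, 34.8% and 17.6%. In Srsf5 and Srsf11 libraries 2 and 3 were above both others.

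The list of genes known for regulated introns (Clk1, Ogt, Mat2a, Snrnp70 and others, partly shared with the SR list) had 6 genes with members and a median share of 22.7% (range 15.3 to 37.1%). These 6 genes hold 37 members, and here too the part of member number in the share was not tested. Its retained intron TPM was 115, 250, 250 and 116 in libraries 1 to 4, while all transcripts of these genes gave 659, 827, 968 and 629 TPM. Ogt, the transferase that adds O-GlcNAc to proteins, was at 39.8%, 44.4%, 38.2% and 26.0%. Snrnp70, a protein of the U1 particle that recognises the start of introns, was at 14.3%, 33.3%, 26.9% and 18.9%, and Mat2a, which makes S-adenosylmethionine, at 16.7%, 29.7%, 26.0% and 16.0%. In Snrnp70 and Mat2a, too, libraries 2 and 3 were the highest 2. None of the 6 exceeded its coding sum and 5 were below it, which is near the 3.56% and 83.9% of all parent genes.

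The hnRNP and PTB proteins, which often repress splicing, had a median share of 4.63% over 14 genes. The median was 7.23% over all parent genes and 3.29% over those of 100 to 1000 TPM. All 14 were below their coding sum, against 83.9% of all parent genes. Hnrnpk was even over libraries, at 27.4%, 28.5%, 29.9% and 29.5%, while Hnrnpa2b1 was at 13.4%, 22.0%, 22.2% and 12.3% and Hnrnpl at 8.50%, 19.2%, 22.4% and 15.6%. Of the 10 nonsense-mediated decay factors, 6 had members, with a median share of 15.1% and 4 below coding, against 83.9% of all parent genes. Smg5 was at 20.1%, 47.9%, 52.8% and 40.9%, and Smg9 at 14.0%, 36.1%, 29.5% and 23.4%, in both cases lowest in library 1. Smg1, the kinase of the pathway, is led by a member and was at 62.9%, 55.9%, 39.3% and 27.9%, in a gene of only 6.58 TPM. Synaptic genes whose introns are known to depend on PTB proteins were also read. Vamp2, which drives fusion of synaptic vesicles, was at 2.90 to 7.86%, and the member of Sv2a was listed at 0 in all 4 libraries.

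Cytosolic ribosomal protein genes, taken by their Rpl and Rps symbols, gave 49 genes with members, a median share of 3.19% and 43 genes below coding, near the 83.9% of all parent genes. A member led and exceeded coding in 4 of the 49, where 6.50% of all parent genes were led and 3.56% exceeded coding. All 4 are named here: Rps20, Rps16 (89.2%), Rps2 (87.0%) and Rpl12 (65.1%). Rps16-203 has 518 bases against 1109 for the top coding model and Rps2-205 389 against 1094, while Rpl12-207, at 1417 bases, is longer than its coding model of 1242. Ribosomal protein genes have many near-identical pseudogenes, so the division of their reads is uncertain.

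Among genes that mark the cell state, shares ranged widely. Of 15 neural stem cell genes 8 had members, with a median share of 12.2% and all 8 below coding, against 83.9% of all parent genes. The intermediate filament genes Vim and Nes had shares of 28.2 to 40.0% and 25.5 to 41.3%, and the glutamate transporter gene Slc1a3 2.75 to 4.59%. Of 15 genes of activated stem cells and progenitors 8 had members, with a median share of 13.8%. A member led 2 of them, Cdk4 and Dlx1, against 6.50% of all parent genes. Members exceeded coding in 1 of the 8 and were below it in 6, against 3.56% and 83.9% of all parent genes. Dlx1, a homeobox factor of interneuron progenitors, was at 52.5%, 58.8%, 62.1% and 64.3%, through Dlx1-206 and the 3385-base Dlx1-203, which keeps a whole intron of 1107 bases. Its lead was near a tie, with means of 48.1 TPM for Dlx1-206 and 48.0 TPM for the coding Dlx1-201. Dlx1-201 was ahead in library 1, at 69.2 against 47.8 TPM. Dlx1 was also the 1 gene above coding, at a log2 ratio of 0.58 (adjusted p = 0.0393, limma) by TPM. By counts it was -0.31, which did not pass. Hes6, an inhibitor of Hes1, was at 22.2 to 29.8%. Of the 3 markers used in the sort only Prom1 had members, at 3.83% ± 2.87 (SD, n = 4). Of 14 immediate early genes 2 had members. Dusp1, a phosphatase of MAP kinases, had retained intron levels of 52.0, 129, 120 and 35.7 TPM, and shares of 16.3%, 28.2%, 17.7% and 15.3%, so its level was highest in libraries 2 and 3 and its share in library 2.

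Clock genes and genes of store-operated calcium entry had median shares of 6.48% over 12 genes and 2.76% over 8, against 7.23% over all parent genes. No gene of either list was led by a member or above coding, where 6.50% and 3.56% of all parent genes were. Csnk1e, a kinase of the clock, was highest by level of the first list at 10.4 to 19.2%, and Stim1, the calcium sensor of the second, was at 6.08 to 25.1%. Members in genes of other cell types were also read. The microglial list gave 0.982, 5.66, 5.88 and 0.406 TPM in libraries 1 to 4, which came mostly from Aif1 in libraries 2 and 3 and mostly from Trem2 in library 4. Pecam1, the endothelial adhesion molecule, was at 70.6 to 100% in a gene of 3.87 TPM, through the single-exon Pecam1-208, which is 89.4% intron. The neuron list had 246 to 314 retained intron TPM, of which Ppp1r1b gave 246 to 313.

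The shares that differed most between libraries rested on few reads in some genes and not in others. By the SD of the share among genes of at least 10 TPM, the first 8 included Sun2, Cfap157, Osbpl7, Got1l1, Apeh, Tasp1 and Ctdspl, with SDs from 24 to 28.8 percentage points. Sun2, a protein that links the nuclear envelope to the cytoskeleton, was at 78.3%, 67.0%, 64.8% and 13.6%, where its leader Sun2-207, of 234 bases, had 12, 10.4, 8.63 and 0 estimated counts and the longer Sun2-205 had 69.6, 108, 57.2 and 16.7. Cfap157-202, of 269 bases, had 5.56, 4.55, 14.7 and 0. Apeh, an aminopeptidase, was at 0.727%, 61.4%, 32.3% and 20.3%, and Apeh-207, of 376 bases, had 0, 34.1, 0 and 8.15 counts, while Apeh-209, of 2517 bases, had 0, 208, 98.8 and 0. Tasp1-204 had 65.9, 83.6, 135 and 202 counts, and Got1l1-204 had 46.2, 192, 58.4 and 3.46. Osbpl7, a sterol-binding protein, was at 4.86%, 41.1%, 16.0% and 63.7%.

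**Figure D5:**
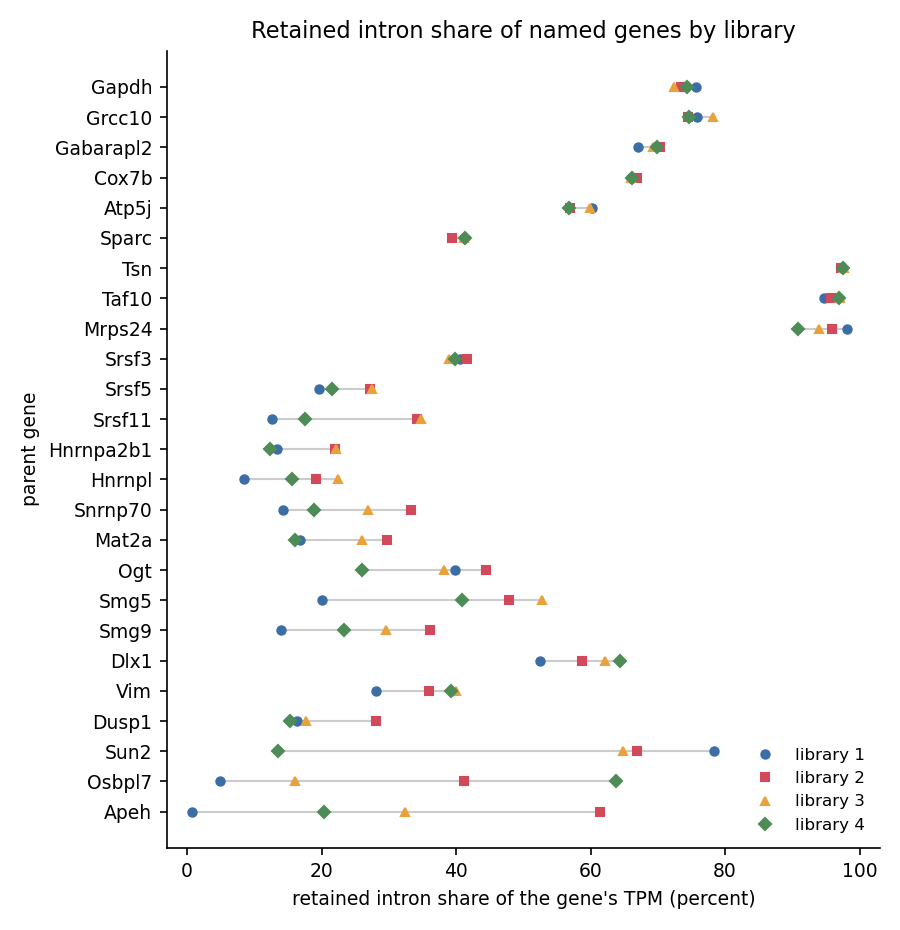
Retained intron share of the gene's TPM (percent, x axis) in each of 4 libraries (symbols) for 25 named parent genes (y axis), with a grey line from the lowest to the highest library. Tsn, Cox7b and Srsf3 have nearly coincident points, Srsf11 goes from 12.7 to 34.8%, and Sun2 and Apeh span the widest ranges.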

How the data were processed

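Per the labels' protocols, RNA was taken with the PicoPure kit, copied to cDNA by SMART-Seq v4 and read in pairs on an Illumina HiSeq. Quantification used kallisto and sleuth with build mm10, per the submitters' processing notes; for versions and the index release, nothing was given in the sources used here. Each row of the deposited tables holds an estimated count from kallisto's expectation maximization and a TPM value, both made by the authors, with length and effective length. Estimated counts divide shared reads between isoforms and near-identical genes by estimate, and amplified reads without molecular identifiers are not independent molecules.

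Types, genes and exons came from GENCODE M21, with 98294 of 99567 transcripts matched and 92612 of the same version. Intron bases are bases between the exons of the gene's coding transcripts and in none of them. An intron counts as kept whole when it is an intron of at least 30 bases of any coding transcript and lies inside an exon of the member. Levels and ratios were tested with limma 3.58.1 (R 4.3.3) as intercepts on log2(TPM + 1) or its within-gene difference, with Benjamini-Hochberg adjustment at 0.05. A fold on this scale understates the change of low genes. edgeR 4.0.16 (quasi-likelihood, counts rounded) was an alternative. The main limma fits of levels and of ratios were tested on simulated data, and the edgeR and other alternative fits were not. Simulated counts and ratios were drawn independently, so the division of shared reads between isoforms was not simulated. No level below 1 TPM or ratio below 1 was planted, so the rates do not cover calls below. At a true level of 1 TPM or a true ratio of 1, 3.5% and 6% were called. At 2 TPM or a ratio of 2 it was 67% and 71.5%, and at 4 it was 98.5% and 98%. Genes named are the 12 highest members, the 12 highest genes led in 4 of 4 libraries, the 10 highest shares and the 8 largest SDs among genes of at least 10 TPM, and up to 3 genes per list; some genes that the rule names are not reported here. Members, lists and rules were chosen with earlier results of these data known. Replicate numbers follow accession order. One group allows no comparison of conditions, and none was made.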

Additional observations from a re-analysis of the deposited data

Results flagged for a closer look

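In each of 76 reported sets of 4 library values, the gap of the highest or lowest library to its neighbour was set against the range with Dixon's criterion at the 95% level; about 1 set in 20 passes by chance, and 4 of the 76 did. The ratio of the retained intron share in TPM to that in counts was 1.31 in library 2, against 1.42 to 1.43 in the others, which is 0.387 on the log2 scale against 0.507 to 0.521. The Sparc share was 39.4% in library 2, against 41.1 to 41.4%. The share of Mag, a myelin gene, was 3.4% in library 1, against 0.429 to 0.719%, in the library where its top coding transcript was lowest (8.04 TPM against 73.1 to 92.1 TPM).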

How the results depend on the processing

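No paired analysis was possible because all 4 libraries form 1 group. The mean share of TPM (3.90%) was 4.64% with nuclear genes alone in the denominator. With 2 subsets chosen after seeing the data, members of at least 20% intron bases and members with a whole intron, it was 2.14% and 1.24%, by construction smaller. The 2075 members above 1 TPM became 1276 and 752 in those subsets, the 225 genes above coding 104 and 68, and the 412 led genes 215 and 108. The members with a whole intron left 1398 of the members below 1 TPM and 2433 of the genes below coding. The 4713 members below 1 TPM became 1280 with a mean of at least 5 estimated counts and 79 with edgeR. Genes above coding became 121 with CPM. Led genes became 227 by counts and 226 at 10 TPM or more. Leaving out 1 library at a time gave shares of 3.67 to 4.14%, log2 ratios of TPM to count share of 0.467 to 0.512, 1612 to 2012 members above 1 TPM, 3571 to 3853 below, 188 to 223 genes above coding, 5101 to 5226 below and 386 to 439 led genes.

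Of 250 alternative fits for 22 named genes, 198 kept direction and side of the threshold, 30 kept direction but missed it, 1 passed it and 21 changed sign. By CPM the log2 ratio was -0.22 in Atp5j, -0.06 in Hba-a1, -1.38 in Cdk4, -0.19 in Gabarapl2, -0.16 in Cox7b and -0.45 in Psmb4. Against the most abundant coding transcript it was 0.55 in Sparc. With members of at least 500 bases it was -2.44 in Cdk4 and -4.12 in Grcc10. With members of at least 20% intron it was -4.60 in Gapdh, -5.12 in Atp5j, -3.30 in Cdk4, -4.12 in Grcc10, -6.45 in Gabarapl2, -4.78 in Psmb4, -2.41 in Taf10 and -1.62 in Mrps24. With members that keep a whole intron it was -3.30 in Cdk4, -4.12 in Grcc10, -0.50 in Atic and -2.85 in Dock10. The last 3 settings leave out members by construction; otherwise the cause was not tested.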
